A study of Mus musculus with 4 samples.

Results

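The long noncoding RNAs and host genes of small nucleolar RNAs (snoRNAs) described here are 9 genes chosen by symbol: Tug1, Malat1, Neat1, Gas5, Snhg1, Snhg3, Snhg8, Meg3 and H19. Of these names, 8 had a row among the 33924 gene symbols of the count files, 7 had a count in at least 1 library, 5 had counts in every library and 3 (Tug1, Malat1 and Neat1) reached 20 counts in at least 1 library. The names were picked with the counts of these same libraries in view, so their levels are given as a description and without a test. The study sequenced RNA from the liver of mice of strain C57BL6 aged 3, 9, 15 or 21 months, with 1 library per age, and its methods give the animals as male C57BL/6Rj. Each library held equal amounts of RNA from 24 mice, which were killed in groups of 4 at 6 hours of the day, so that time of day was averaged within each age. Uncapped RNA was digested and linkers were joined after removal of the cap, so that reads start at the 5' ends of capped transcripts. No other treatment or genotype was given for any age.

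Long noncoding RNAs are transcripts that code for no known protein. Malat1 and Neat1 stay in the nucleus, where Malat1 gathers in nuclear speckles, which store splicing factors, and Neat1 is the scaffold of paraspeckles, nuclear bodies built around RNA-binding proteins. The genes Gas5, Snhg1, Snhg3 and Snhg8 are snoRNA hosts: their introns are cut into snoRNAs. Most snoRNAs, though not all, guide the chemical modification of ribosomal RNA. The spliced host RNA of Gas5 is degraded by nonsense-mediated decay (NMD), and such hosts often start with a tract of pyrimidines, as the transcripts of the translation machinery do. Meg3 and H19 are expressed from the maternal chromosome of the imprinted Dlk1-Dio3 and Igf2-H19 loci and are abundant in fetal rather than adult liver, whereas Tug1 is a widely expressed RNA transcribed next to the gene Morc2a.

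Counts on genes numbered 955934, 958586, 525772 and 735962 in the libraries of 3, 9, 15 and 21 months, and between 11124 and 12262 symbols were detected. A count of 0 allows a level of up to 3.13 to 5.71 cpm, which are counts scaled by the library's total on genes, from 3 counts in each library. The hepatocyte marker Alb had 54574 to 65169 cpm, so the liver label was met. Levels are given as counts and as cpm with a 95% Wilson interval. Ratios between ages were computed after each library was divided by the geometric mean over the 8704 genes with a count in every library, which is the centred log-ratio (clr) scale, and each has an exact Clopper-Pearson 95% interval from its 2 counts. These intervals cover counting error only, since reads carried no molecular identifiers and no age had a replicate library. A difference between ages can therefore not be told apart from a difference between pools or libraries, and in bulk liver fewer cells of a type and less RNA per cell cannot be told apart either.

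Malat1 was by far the most counted of the group. In order of age, it had 1789, 2218, 1150 and 1671 counts, or 1871, 2314, 2187 and 2271 cpm. The lowest level was at 3 months and the highest at 9 months. Neat1, which lies on the same strand of chromosome 19 as Malat1, had 223, 233, 130 and 173 counts, or 233, 243, 247 and 235 cpm. The intervals of Neat1 overlapped in every pair of libraries. Tug1 had 45, 67, 34 and 151 counts, or 47.1, 69.9, 64.7 and 205 cpm. The library of 21 months stood above the others, and its interval of 175 to 241 cpm did not overlap any of theirs, the highest of which ended at 90.4 cpm.

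**Figure D1:**
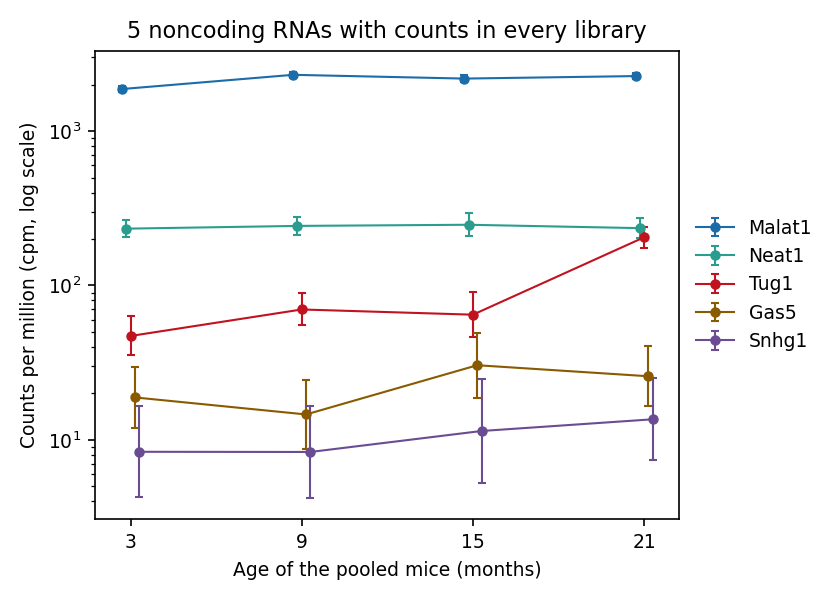
Level of the 5 noncoding RNAs with counts in every library, in cpm on a log axis, against the age of the pooled mice in months. Points are single pooled libraries, moved sideways slightly, with 95% Wilson intervals for counting error, and Tug1 reached 205 cpm at 21 months against 47.1 to 69.9 cpm at the younger ages, while Neat1 stayed between 233 and 247 cpm.

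Among the snoRNA hosts, Gas5 had 18, 14, 16 and 19 counts at 3, 9, 15 and 21 months, or 18.8, 14.6, 30.4 and 25.8 cpm. Snhg1 had 8, 8, 6 and 10 counts, or 8.37, 8.35, 11.4 and 13.6 cpm. For each of these hosts the intervals of all 4 libraries overlapped. Snhg3 had 2 counts at 9 months, 1 count at 15 months and 0 at 3 and 21 months. Meg3 had 1 count at 9 months and 0 at the other ages, and H19 had 0 counts in all 4 libraries. Levels of Snhg3, Meg3 and H19 were thus at or under the limit that a count of 0 allows, and their differences between ages were not detectable at this depth. Per kilobase of annotated exon, the mean level over the libraries was highest for Malat1 at 309 cpm per kb, followed by Tug1 at 14.5, Neat1 at 11.5, Gas5 at 5.96, Snhg1 at 3.54, Snhg3 at 1.01 and Meg3 at 0.0144 cpm per kb. The order of Tug1 and Neat1 on this scale rested on the 21-month library, since Tug1 had 7.06 to 10.5 cpm per kb at the younger ages against 11.2 to 11.9 for Neat1. Reads of these libraries start at 5' ends, so dividing by exon length counts a long transcript down.

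Between 9 and 3 months, 0 of the 3 members with at least 20 counts in 1 library were past 2-fold. Past 2-fold means a ratio of at least 2 or at most 0.5. By the same rule, 16.7% of the 4311 genes compared were past 2-fold. All 3 members had at least 20 counts in every library, but many of the 4311 genes did not. Genes with fewer counts have wider counting intervals and pass 2-fold more easily. The 0 of 3 is therefore no evidence of unusual stability. Tug1 at 9 months was 1.52 times its level at 3 months (95% interval 1.03 to 2.27). Malat1 was 1.27 times as high (1.19 to 1.35) and Neat1 1.07 times (0.885 to 1.29), and the median of all genes compared was 0.972. Gas5 had a ratio of 0.795 (0.366 to 1.69) and Snhg1 one of 1.02 (0.335 to 3.13). Both host gene intervals included ratios past 2-fold, so a difference of that size was not detectable at this depth.

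Between 15 and 3 months, again 0 of the 3 members were past 2-fold, against 20.1% of 4301 genes. That set likewise includes genes with fewer counts than these members, so the share is not matched to them. The ratio was 1.26 for Tug1 (0.78 to 2.01), 1.07 for Malat1 (0.992 to 1.15) and 0.969 for Neat1 (0.775 to 1.21), beside a median of 0.892 over all genes compared, which is a shift of -0.16 on the log2 scale. Gas5 had a ratio of 1.48 (0.705 to 3.07) and Snhg1 of 1.25 (0.357 to 4.1). All 5 intervals, of which that of Malat1 was the narrowest, included 1.

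Between 21 and 3 months, 1 of the 3 members was past 2-fold, Tug1, against 18.1% of 4309 genes in either direction and 7.15% of them in the higher direction. Tug1 had 151 counts at 21 months and 45 at 3 months, a ratio of 4.24 (3.02 to 6.06) and 2.09 on the log2 scale. Larger ratios were found for 40 of the 4309 genes, and for 0 of the 1956 genes with at least 20 counts in every library, of which 2.45% were at least 2-fold higher. Because the gene was chosen with this value known, its place in that order is a description. Malat1 had a ratio of 1.18 (1.1 to 1.26), Neat1 of 0.981 (0.8 to 1.2), Gas5 of 1.33 (0.663 to 2.70) and Snhg1 of 1.58 (0.562 to 4.61), beside a median of 0.954 over all genes compared.

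**Figure D2:**
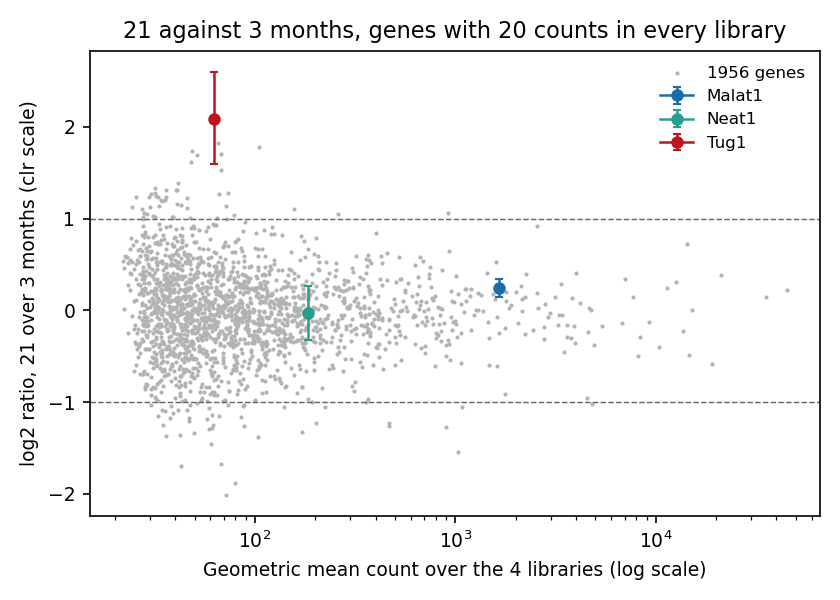
Log2 ratio of 21 over 3 months on the clr scale against the geometric mean count over the 4 libraries (log axis), for the 1956 genes with at least 20 counts in every library (grey points), with dashed lines at 2-fold. Coloured points are Tug1, Malat1 and Neat1 with 95% counting intervals, and no grey point lies above Tug1 at 2.09.

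The excess of Tug1 at 21 months held against each younger library. It was 2.79 times the level of 9 months (2.08 to 3.77), where 16.4% of genes were past 2-fold in either direction and 7.03% were higher. Against 15 months the ratio was 3.38 (2.32 to 5.06), where 18.6% were past 2-fold and 10.7% were higher. Between the younger ages, the ratio of 15 over 9 months was 0.825 (0.529 to 1.26). All these comparisons of Tug1 with 21 months share that library, so they are not separate evidence of an age difference. In the same library the summed counts of 8 Kupffer cell and macrophage markers were 803 against 774 at 3 months, a ratio of 1.31 (1.19 to 1.45), beside ratios of 1.16 at 9 months and 1.06 at 15 months. At 21 months these markers differed, from 0.924 for Csf1r and 0.994 for Clec4f to 3.79 for Marco. The summed counts of 5 B and plasma cell markers were 3, 14, 24 and 48 in order of age, of which Ighm gave 2, 8, 19 and 39, while Ms4a1 was at 0 throughout and Cd79b at 0 at 21 months. Their part in the level of Tug1 was not tested.

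Ratios of 2 members counted in the same library do not depend on how libraries are scaled. Malat1 had 8.02 times the counts of Neat1 at 3 months (6.98 to 9.26), 9.52 times at 9 months (8.31 to 10.9), 8.85 times at 15 months (7.37 to 10.7) and 9.66 times at 21 months (8.25 to 11.4). These intervals overlapped for every pair of ages. Tug1 had 0.0252, 0.0302 and 0.0296 times the counts of Malat1 at 3, 9 and 15 months, and 0.0904 times at 21 months (0.076 to 0.107). Against Neat1, Tug1 had 0.202, 0.288 and 0.262 times the counts at the younger ages and 0.873 times at 21 months (0.697 to 1.09). The oldest pool was thus the library in which Tug1 stood highest against each of these nuclear RNAs. For the hosts, Gas5 had 2.25, 1.75, 2.67 and 1.90 times the counts of Snhg1, with intervals that overlapped throughout.

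**Figure D3:**
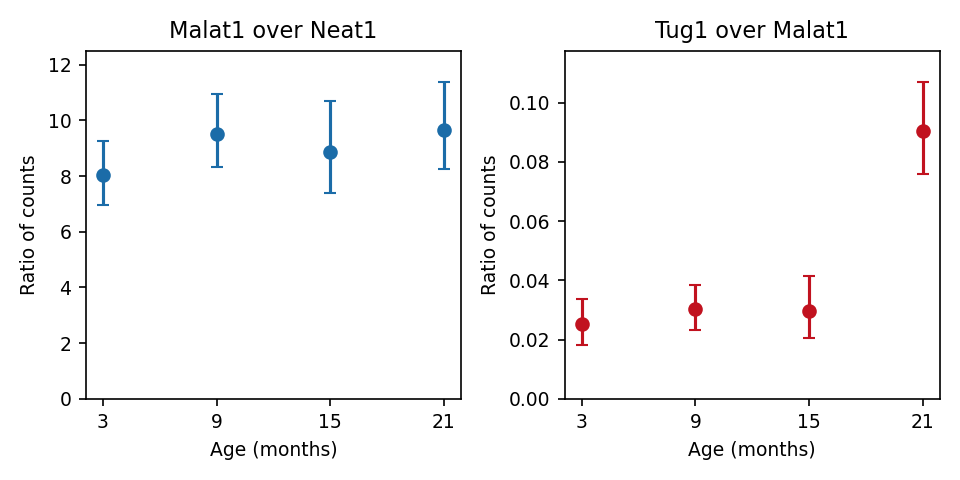
Counts of Malat1 over Neat1 (left) and of Tug1 over Malat1 (right) within each library, against age in months, with exact 95% counting intervals and both vertical axes starting at 0. The left ratio stayed between 8.02 and 9.66, and the right one was 0.0904 at 21 months against 0.0252 to 0.0302 at the younger ages.

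Stability across age was measured by the variance of the clr values over the 4 libraries, the scale that the methods use. Tug1 had a variance of 0.407, Malat1 of 0.0111, Neat1 of 0.00189, Gas5 of 0.0792 and Snhg1 of 0.0453, on a natural log scale. The share of variance that counting alone gives (the mean of 1 over the counts) was 0.0183 for Tug1, 0.000619 for Malat1, 0.00556 for Neat1, 0.0605 for Gas5 and 0.129 for Snhg1. The variance was above its counting part for Tug1, Malat1 and Gas5 and below it for Neat1 and Snhg1. With a pseudocount of 1, however, that of Neat1 was 0.00946, above its counting part, and that of Gas5 was 0.0507, below it. That alternative also changed the scale, to a geometric mean over all genes with a count in at least 1 library. The parts of pseudocount and scale were not separated. The median variance was 0.16 over the 8704 genes with a count in every library, and 0.0388 over the 1956 genes with at least 20 counts in every library. Among those 1956 genes, 20 had a lower variance than Neat1, 282 a lower one than Malat1 and 1944 a lower one than Tug1. These places rest on few libraries. Without the 21-month library the variance of Tug1 was 0.0447 and that of Snhg1 0.0133. Without the 9-month library that of Neat1 was 0.000374, of Malat1 0.00691 and of Gas5 0.0397, which is below its counting part. Without the 3-month library that of Neat1 was 0.00337, and without the 21-month library 0.00308. Over all alternatives Neat1 ran from 0.000374 to 0.00946 and Malat1 from 0.00691 to 0.0157. The range from the lowest to the highest age was 4.24-fold for Tug1, 1.86-fold for Gas5, 1.58-fold for Snhg1, 1.27-fold for Malat1 and 1.1-fold for Neat1.

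The genes with a pattern most like each member were sought among the 1956 genes by the root mean square difference of their age-centred clr values over the 4 ages. For Tug1 they were U5, an RNA of the spliceosome whose symbol several gene copies share, with 101, 104, 42 and 274 counts and a difference of 0.218, Acmsd, an enzyme of tryptophan breakdown, with 56, 89, 24 and 157 counts and a difference of 0.246, and Spna2, an alpha spectrin of the membrane skeleton, with 37, 80, 20 and 90 counts and a difference of 0.289. Each of the 3 had its highest clr level at 21 months, as genes chosen for likeness to Tug1 would. None was within 0.1 of Tug1, but counting error alone gives a difference above 0.1 for each of them. Missing 0.1 therefore does not show that Tug1 lacks a gene with a close pattern. For Malat1 the nearest was Slc27a5, a liver acyl-CoA synthetase for bile acids and fatty acids, with 710, 859, 448 and 637 counts and a difference of 0.0144, before Dcaf8, a ubiquitin ligase adaptor, at 0.0214 and Abca2, a lipid transporter, at 0.0236. For Neat1 the nearest was the chemokine Cxcl1 with 44, 46, 26 and 34 counts and a difference of 0.00659, before Rab1b, a GTPase of the secretory pathway, at 0.0152. As many as 224 genes lay within 0.1 of Malat1 and 343 within 0.1 of Neat1. Counting error alone gives differences of 0.0407 to 0.181 for these genes, so the order among the nearest genes of Tug1, Malat1 or Neat1 cannot be resolved.

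By the GENCODE M1 annotation on mouse build NCBIM37 (mm9), Tug1 is a lincRNA at chr11:3539797-3548815 on the minus strand with 6672 exon bases. Malat1 is at chr19:5795690-5802671 and Neat1 at chr19:5824708-5845478, both on the minus strand and each in 1 block of exon, of 6982 and 20771 bases. Gas5 is at chr1:162964553-162968670 and Snhg1 at chr19:8797986-8800932 on the plus strand, with 3760 and 2947 exon bases, and Snhg3 is at chr4:131903929-131909601 on the minus strand with 986. Meg3 is at chr12:110779211-110809936 on the plus strand and H19 at chr7:149761434-149764048 on the minus strand. Among them Gas5 had the most annotated transcripts, 25 with 20 different starts. Tug1, Gas5 and Snhg1 each have a protein-coding gene that starts within 1000 bases on the opposite strand. Morc2a, a chromatin protein whose start is 682 bases from that of Tug1, had 9, 19, 7 and 16 counts at 3, 9, 15 and 21 months. Its ratio of 21 over 3 months was 2.25 (0.935 to 5.77), and Tug1 had 5, 3.53, 4.86 and 9.44 times its counts. The interval of Morc2a overlapped that of Tug1, so these counts do not separate the neighbours. Slc3a2, an amino acid transporter subunit 127 bases from Snhg1, had 30, 44, 23 and 21 counts, and Zbtb37, a zinc finger gene 427 bases from Gas5, had 3, 7, 2 and 4.

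Promoter sequences show where capped reads of a member would begin, and 6 are printed, those of the hosts and of the counted RNAs Tug1 and Malat1, so that their letters can be compared. They come from RefSeq on build GRCm38.p6, whose table held 7 of the 9 members (9 promoters), and each was found exactly once on NCBIM37, whose coordinates are given. Each runs from 100 bases before the annotated start to 50 bases from it, 5' to 3' on the transcribed strand, and capitals mark TATAA or TTATA, and a run of at least 6 C or T within 10 bases of the start. For Gas5 the promoter shown is the one with a start that GENCODE M1 also gives.
Gas5, chr1:162965197-162965346, plus strand: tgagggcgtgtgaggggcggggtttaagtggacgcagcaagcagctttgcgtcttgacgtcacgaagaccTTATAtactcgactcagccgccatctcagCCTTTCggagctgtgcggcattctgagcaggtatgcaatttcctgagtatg
Snhg1, chr19:8797877-8798026, plus strand: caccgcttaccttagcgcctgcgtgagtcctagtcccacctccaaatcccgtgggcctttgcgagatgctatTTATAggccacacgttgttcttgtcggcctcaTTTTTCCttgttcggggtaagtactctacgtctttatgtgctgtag
Snhg8, chr3:123211205-123211354, minus strand: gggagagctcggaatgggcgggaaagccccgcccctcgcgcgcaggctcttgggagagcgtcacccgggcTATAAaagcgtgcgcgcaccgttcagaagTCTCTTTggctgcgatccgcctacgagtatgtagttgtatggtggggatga
Snhg3, chr4:131909552-131909701, minus strand: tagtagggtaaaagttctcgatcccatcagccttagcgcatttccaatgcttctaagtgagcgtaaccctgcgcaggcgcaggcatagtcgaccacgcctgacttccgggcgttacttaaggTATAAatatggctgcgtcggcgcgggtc
Tug1, chr11:3548768-3548917, minus strand: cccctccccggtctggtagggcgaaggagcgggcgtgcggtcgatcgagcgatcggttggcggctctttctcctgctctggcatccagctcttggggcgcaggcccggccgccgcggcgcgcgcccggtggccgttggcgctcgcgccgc
Malat1, chr19:5802623-5802772, minus strand: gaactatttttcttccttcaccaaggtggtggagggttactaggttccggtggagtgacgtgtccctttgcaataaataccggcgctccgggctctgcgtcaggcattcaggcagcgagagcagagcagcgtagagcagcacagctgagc

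In Gas5 and Snhg8 the TATA letters began 30 bases before the start and in Snhg1 28 bases before it. The pyrimidine run was CCTTTC in Gas5, TCTCTTT in Snhg8 and TTTTTCC in Snhg1, beginning at the base before the start in Gas5 and Snhg8 and at base 5 of the transcript in Snhg1, where only the part inside those 10 bases was counted. In Snhg3 the letters TATAA began at base 23 after the annotated start and the longest run had 5 bases. Neither motif was in the window of Tug1 or of Malat1, nor in the other promoter of Gas5. In 1 of the 2 promoters of Meg3 TATA letters began 28 bases before the start, with no run of 6 C or T. Of all 32851 RefSeq promoters, 12.9% held TATAA or TTATA in the same window, 21.0% had such a pyrimidine run and 2.68% had both. The motifs were searched on the transcribed strand only, in overlapping matches, and were chosen with the sequences in view, so these shares describe the letters and not a factor.

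Snhg8 had no row under its symbol or under an older symbol of RefSeq, so no level is given for it. Within 1000 bases of its RefSeq start, GENCODE M1 has only the snoRNA AC124005.1, downstream of the start at chr3:123210855-123210984. That row had 11, 5, 1 and 8 counts at 3, 9, 15 and 21 months, and its ratio of 21 over 3 months was 0.920 (0.321 to 2.51). Whether these counts are of Snhg8, of a snoRNA or of both was not tested.

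The small RNAs that the hosts hold were nearly all without counts. Within Gas5 lie 9 annotated snoRNA genes, within Snhg1 8 and within Snhg3 2, and 18 of these 19 symbols had 0 counts in every library. The exception was the symbol SNORD24, with 45, 23, 25 and 16 counts at 3, 9, 15 and 21 months. It belongs to a gene within Gas5 at chr1:162966188-162966270 and to another at chr2:26766781-26766854, and the row does not say which copy was counted. All 83 bases of the copy within Gas5 lie in exons of Gas5, and snoRNA genes covered in that way had no counts, as given below. These counts are therefore not given as a level of a snoRNA that Gas5 holds. The microRNAs Mir770 and Mir1906-1 within Meg3 and Mir675 within H19 had 0 counts as well. A count of 0 has a limit here, because reads that overlap several genes stand in a separate row of ambiguous reads. Of 212 genes wholly covered by exons on the same strand, 0 had a count in any library, and of 149 genes wholly covered on the opposite strand, also 0, against 41.1% of 27040 genes that share no exon base. For snoRNA genes the numbers were 0 of 47, 0 of 4, and 101 of 150 (67.3%). The snoRNAs within Gas5 and Snhg1 lie wholly in exons of their hosts, so their zeros say nothing of their level. The same is not said of the snoRNAs of Snhg3, since only 159 bases of Snora73a and none of Snora73b lie in exons of that host, and 3 of 11 partly covered snoRNA genes had counts. In all, 4.51 to 7.09 ambiguous reads stood beside each 100 counts on genes.

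**Figure D4:**
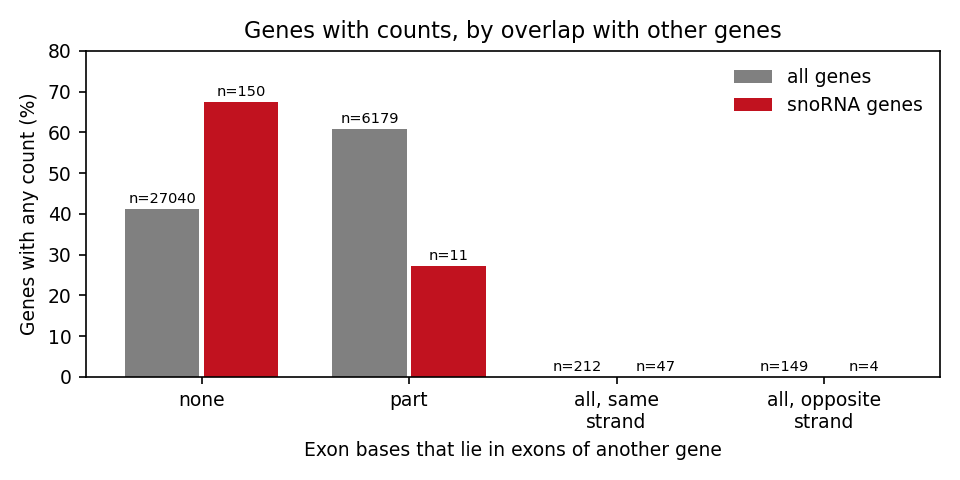
Percent of genes with a count in at least 1 library (vertical axis from 0), by whether none, part or all of their exon bases lie in exons of another gene, for all genes (grey) and snoRNA genes (red), with the number of genes over each bar. Genes wholly covered on either strand had no counts, against 41.1% of all genes and 67.3% of snoRNA genes that share no exon base.

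The same limit touches the hosts themselves. Exon bases shared with no other gene made up 100% of Tug1 and Neat1, 96.5% of H19, 93.9% of Malat1, 92.2% of Meg3, 82.2% of Gas5, 79.1% of Snhg1 and 13.7% of Snhg3. Snhg3 was opposite the lincRNA Gm17300 over 71.5% of its exon bases, and on its own strand overlapped Rcc1, which had 6, 2, 2 and 0 counts. Only 135 of its exon bases were its own, and it had 3 counts in all. Repeats are a separate limit. Of all windows of 35 bases in their exons, the share with a second place in the genome at up to 1 mismatch was 10.8% for Tug1, 2.37% for Malat1, 2.48% for Neat1, 2.54% for Gas5 and 3.40% for Snhg1. In the first 100 bases from annotated starts it was 3.87% for Tug1, 7.58% for Snhg1, 0% for Malat1, Neat1 and Gas5, and 35.1% for Snhg3.

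Other genes of the same kinds were taken from lists, to be read against all genes: 7.45% were past 2-fold higher and 9.28% lower at 9 months against 3 months, 6.32% and 13.8% at 15 months, and 7.15% and 11.0% at 21 months. Of 24 further names of snoRNA hosts, 15 had a row and 5 were compared, and 0 of these were past 2-fold at any age against 3 months. The most counted was 1500012F01Rik, the older symbol of the host Zfas1, with 113, 111, 73 and 104 counts. Summed over the list, counts were 281, 295, 248 and 261, with ratios to 3 months of 1.07 (0.909 to 1.27) at 9 months, 1.47 (1.23 to 1.75) at 15 months and 1.17 (0.989 to 1.40) at 21 months. At 15 months the median of all genes was 0.892. The sum stood above it, while the ratio of Gas5, 1.48, had an interval (0.705 to 3.07) that included it. The ratio of 1500012F01Rik was 1.07 at that age. The list also holds protein-coding hosts, among them Eif4a2 with 60 counts and Ncl with 20 at 15 months. Its sum does not describe noncoding hosts alone. Of 19 further genes whose transcripts start with a pyrimidine tract, 15 were compared. At 9 months the ribosome assembly factor Npm1 was higher (ratio 2.05) and Tpt1, a growth-related protein, and Fau, a ribosomal protein fusion, were lower (0.383 and 0.477). At 15 months Npm1 was higher (2.04) and Eif3f, Fau and Eef1b2 were lower (0.385, 0.436 and 0.448). Eef1b2, with 26, 21, 7 and 16 counts, reached 20 only in libraries in which it was high. At 21 months 0 of the 15 were past 2-fold. The most counted, the elongation factor Eef1a1, had 15969, 14351, 8990 and 20819 counts.

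Of the NMD factors, which act on spliced host RNAs, 13 had a row and 3 were compared, and only the helicase Upf1 was past 2-fold at any age, with 15, 24, 26 and 21 counts and a ratio of 2.88 (1.47 to 5.85) at 15 months. Upf1 reached 20 counts only at the ages at which it was higher than at 3 months, so this ratio supports nothing about the list. The most counted, the kinase Smg1, had 36, 26, 13 and 21. Among proteins of nuclear speckles, where Malat1 resides, 11 of 21 with a row were compared. The kinase Clk1 was higher than at 3 months at all 3 ages, with 12, 34, 16 and 29 counts and ratios of 2.90, 2.22 and 3.06, and reached 20 counts only in libraries in which it was high. Rbm39 was lower at 9 months (0.426), and at 21 months the splicing factor Srsf1 was higher (2.26) and Srrm1 and Srsf11 were lower (0.446 and 0.480). Srsf1, with 14, 22, 15 and 25 counts, also reached 20 only in libraries in which it was high. The most counted, Srsf5, had 185, 233, 124 and 147 counts, and the list's sum stayed at 1.02, 1.02 and 1.01 times that of 3 months.

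Among proteins of the paraspeckle, the body that Neat1 holds together, all 15 had counts and 10 were compared. Several of them entered the comparison only through the library in which they were high, so their counts past 2-fold support nothing about the list: Matr3 (10, 31, 14 and 13 counts), Rbmx (8, 24, 12 and 10) and Sfpq (14, 33, 9 and 17) reached 20 counts at 9 months alone and Pspc1 at 21 months alone. At 9 months the ratios to 3 months were 3.58 for Pspc1, 3.17 for Matr3, 3.07 for Rbmx and 2.41 for Sfpq. At 15 months Pspc1, Rbmx and Matr3 were higher (2.91, 2.49 and 2.33), and Nudt21, a cleavage factor with 24, 17, 1 and 8 counts and so compared only through the 3-month library, was lower (0.0693, interval 0.00168 to 0.425). At 21 months Pspc1 was higher and Tardbp and Nudt21 were among those lower. Pspc1, a core paraspeckle protein, had 4, 14, 7 and 31 counts and a ratio of 9.80 (3.46 to 38.2) at 21 months, and Tardbp, an RNA-binding protein, had 14, 27, 5 and 2 counts and a ratio of 0.181 (0.0199 to 0.786). Rbm14, Hnrnpk and Smarca4 were past 2-fold at no age, and Nono, Cpsf6, Ewsr1, Taf15 and Hnrnph3 had fewer than 20 counts in every library. The counts behind these ratios were small, from 1 to 33 a library for the genes past 2-fold, and the summed counts of 255, 368, 171 and 211 gave ratios of 1.48 (1.25 to 1.74), 1.11 (0.913 to 1.36) and 1.05 (0.868 to 1.26). Over the same ages the ratios of Neat1 stayed between 0.969 and 1.07.

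At the imprinted loci of Meg3 and H19, 10 further genes were listed and 8 had 0 counts in every library. Igf2, the fetal growth factor, had 0, 0, 7 and 1 counts and Nctc1 had 0, 0, 1 and 0. Of 34 further long noncoding RNAs, 15 had a row and 6 of those had 0 counts, among them Xist, which is silent in males, in all 4 libraries. Only 1700020I14Rik, the older symbol of Oip5os1, reached 20 counts, with 13, 30, 11 and 15 and a ratio of 2.36 (1.19 to 4.93) at 9 months, the same library that let it into the comparison. Markers of other liver cells stood at 330, 567, 306 and 406 summed counts for stellate cells and fibroblasts and 755, 766, 405 and 555 for sinusoidal endothelial cells. The stellate sum was 1.76, 1.54 and 1.56 times that of 3 months at 9, 15 and 21 months, and the sinusoidal sum 1.04, 0.892 and 0.93 times. These sums do not describe each marker. At 21 months Lyve1 had a ratio of 2.02 and Stab2 of 0.545 among the sinusoidal markers. Among the stellate markers Dcn, the most counted, had 1.44 and Col3a1, with 9 and 2 counts at 3 and 21 months, had 0.281. T cell, cholangiocyte and proliferation markers had at most 18 summed counts in any library.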

How the data were processed

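The labels and methods give liver RNA pooled by age, a kit that enriches capped 5' ends, SOLiD 5500xl sequencing of the 4 barcoded libraries on 1 lane, mapping of 35-base reads to mm9 in CLC Genomics Workbench, and HTSeq, version not given. The deposited values are raw counts per gene symbol, made by the authors without normalization. The strand setting and gene annotation of the counting are not given in the sources used here. Rows that name no gene were left out of totals: ambiguous reads, reads without a feature (15.5 to 19.0% of records) and alignments that were not unique (72.2 to 76.7%).

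The 9 genes and 7 further lists were chosen with earlier results of these data known, as were the summaries of motifs, shared exons, repeats and genes with 20 counts in every library. Genes were named by a fixed rule: the 9 members, hosted, paraspeckle and imprinted locus genes with counts, up to 5 genes past 2-fold and the most counted gene of each other list, and the 3 genes most like each of Tug1, Malat1 and Neat1. SNORD24, AC124005.1 and the opposite-strand neighbours were singled out after their values were seen. List genes known in the files only by an older symbol were not added. Some genes that this rule names are not reported here.

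Values were centred log-ratios, ln(count / geometric mean over genes counted in every library). With 1 library per age no test across replicates was possible and no p-value is given. Alternatives were TMM (edgeR 4.0.16, R 4.3.3), DESeq2 1.42.0 size factors, library totals, the geometric mean of 7 marker genes of the study or of genes with 10 counts in every library, a pseudocount of 1, no filter, and leaving out each library. With the pseudocount, the scale was the geometric mean of count plus 1 over genes with a count in at least 1 library. Intervals came from scipy 1.17.1 in Python 3.11.15 (with pandas 2.3.3 and numpy 2.4.6) and were tested on simulated data, and plots from matplotlib 3.10.9.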

Additional observations from a re-analysis of the deposited data

Results flagged for a closer look

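The snoRNA AC124005.1, the only annotated gene within 1000 bases of the RefSeq start of Snhg8 and downstream of it, had 25 counts summed over the 4 libraries (11, 5, 1 and 8). It was picked out because it shows a signal in a row that no comparison of the 9 members uses, above the 3 counts that a count of 0 allows. Which transcript these counts come from was not tested.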

How the results depend on the processing

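The counts of members past 2-fold (0, 0 and 1 at 9, 15 and 21 months against 3 months) were unchanged under the 7 alternatives tried for each. Another 140 alternative values were ratios and variances of the 5 members with counts in every library. Of these, 120 stayed within the interval of the ratio or, for a variance, within its counting part of the main value, and 20 did not. A reversed call was possible only for the ratio of Tug1 at 21 over 3 months, the only one past 2-fold, and 0 were seen. The ratio of Tug1 at 21 over 3 months ran from 3.84 to 4.38, and its clr variance, left out 1 library at a time, from 0.0447 without 21 months to 0.604 without 9 months. The ratio of Malat1 at 15 over 3 months ran from 0.918 with a pseudocount of 1 and its scale to 1.17 with the 7 marker genes. Its direction was thus not fixed, and the ratio of Neat1 ran from 0.835 to 1.06. Malat1 at 9 over 3 months was 1.14 with the 7 marker genes, and at 21 over 3 months 1.08 with a pseudocount of 1 and its scale. Both values lie under the counting intervals given above, so the choice of scale moved Malat1 by more than those intervals cover. The ratio of Neat1 at 9 over 3 months ran from 0.958 to 1.1 and at 21 over 3 months from 0.902 to 1.01. That of Snhg1 at 9 over 3 months ran from 0.917 to 1.05. The cause was not tested. The median log2 ratio of all genes compared at 9 over 3 months was -0.04, and -0.20 with the 7 marker genes. No paired analysis was possible because each age has 1 library and the labels carry no replicate numbers. Depth leaves Gas5 and Snhg1 with wide intervals and Snhg3, Meg3 and H19 near the limit of a count of 0.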
